A study of Homo sapiens with 6 samples.

Results

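The genes described here encode the core machinery of regulated cell death: the BCL2 family, caspases, the apoptosome and other mitochondrial factors, inhibitors of apoptosis, the death receptor ligand TRAIL with its receptors and adaptors, and the factors that cut nuclear DNA. They were chosen by name, and all 41 were listed among the 40173 genes of the deposited count table. RNA-Seq was performed on 6 libraries from A549, an established line of human lung adenocarcinoma, and the libraries fell into 2 groups of 3. The control cells were transfected with a negative control and the silenced cells with an siRNA against the long noncoding RNA FAM83H-AS1. RNA was collected the day after transfection, so that the comparison asks how the mRNA profile of the cells changed when FAM83H-AS1 was reduced. A single cell line was used, nothing in the labels says whether the replicates came from separate cultures, and which of the listed siRNAs the sequenced cells received is not given in the sources used here. All p-values therefore measure the spread between these libraries, which may be technical.

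In the intrinsic pathway, BH3-only proteins bind anti-apoptotic BCL2 proteins or activate BAX and BAK1, which open the outer mitochondrial membrane and release cytochrome c. Cytochrome c and APAF1 assemble the apoptosome, which activates caspase 9, while in the extrinsic pathway TRAIL receptors recruit FADD and caspase 8. BCL-XL and MCL1 are known survival proteins of lung adenocarcinoma cells, and the mRNA levels measured here do not report the cleavage or activity of any of the proteins.

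BMF was the only one of these genes that passed both thresholds (adjusted p under 0.05 and fold change over 2), and it belongs to the BH3-only class, which is defined by a short stretch of sequence. The coding bases of this stretch are shown for all 8 BH3-only genes to let BMF be set beside the rest of its class. Each run has 30 bases, 5′ to 3′ on the coding strand, in a transcript of GENCODE 29 with a reviewed protein entry, and the capitals mark the codon of the conserved leucine and the codons of the small residue and the aspartate that close the core.
BMF: cgaaagCTTcagtgcattGCAGACcagttc
BCL2L11: caagagTTGcggcgtattGGAGACgagttt
BAD: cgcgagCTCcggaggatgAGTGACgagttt
BBC3: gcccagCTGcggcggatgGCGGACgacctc
BIK: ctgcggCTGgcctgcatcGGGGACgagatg
PMAIP1: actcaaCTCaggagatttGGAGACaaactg
HRK: gcccggCTCaaggcgctaGGCGACgagctg
BID: aggcacCTCgcccaggtcGGGGACagcatg

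The small residue is alanine in BMF and BBC3, serine in BAD and glycine in the other genes, so that BMF does not share the glycine of most of its class. Of the 30 bases of BMF, BCL2L11 shared 20 at the same place, BAD 18, BBC3 17, BIK 16, PMAIP1 14, HRK 13 and BID 10. Each stretch lies in a single coding exon. On GRCh38 it is at chr15:40104201-40104230 on the minus strand in BMF and at chr2:111150097-111150126 on the plus strand in BCL2L11, the BH3-only genes that passed the test below.

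Library totals ranged from 9738291 to 17742643 counts, with control replicate 3 the deepest. FAM83H-AS1 was at 14.5, 16.0 and 17.3 CPM (counts scaled to the normalized library size) in the control libraries and at 4.59, 4.44 and 5.57 CPM in the silenced libraries, or 30.6% of the control mean. The log2 fold change was -1.70 (standard error, SE, 0.148, edgeR adjusted p = 7.99e-05), so that the targeted RNA was lower in every library labelled as silenced. In such bulk samples, fewer cells with an RNA and less of it per cell cannot be told apart. The pseudogene RNA5-8SP6, of ribosomal origin, took 3.22% of control replicate 3, against 0.241% to 0.448% in the other libraries.

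The label A549 was compared with marker genes. The keratin genes KRT8, KRT18 and KRT7 were abundant, at mean levels of 1863, 1316 and 1413 CPM in the control cells. ALDH1A1 and AKR1B10, enzymes known to be abundant in A549, were near 0, with 0 counts of ALDH1A1 in every library but silenced replicate 3, which had 2, and with 9 to 28 counts of AKR1B10. CDKN2A and MTAP, neighbours in a stretch of the genome that A549 is known to have lost, were read at 62.9 ± 10.4 and 38.3 ± 0.844 CPM in the control cells and at 50.7 ± 2.67 and 36.1 ± 3.31 CPM in the silenced cells (SD, n = 3 each). These genes were chosen after the marker values had been seen. They go against the label, and the cells are therefore called the cells labelled A549 where their identity matters. Summed over 8 epithelial and A549 markers, the control libraries lay between 4905 and 5239 CPM and the silenced libraries between 3915 and 3962 CPM, with KRT18 and KRT7 among the lower markers and AKR1B10 higher at an adjusted p under 0.05 by edgeR. Of 5 leukocyte markers, CD68, which epithelial cells also express, was higher after silencing (log2 fold change 0.88, adjusted p = 9.93e-05 by edgeR) and set the sum of its list (125 to 142 CPM in control and 226 to 256 CPM in silenced libraries), whereas PTPRC had at most 1 count in any library and CD3E had 0. The 6 alveolar type II markers, at 12 counts or fewer in any library, and the 3 erythroid and liver markers, at 1 count or fewer, were too low to be tested. Of the fibroblast and endothelial markers, 2 each could be tested, and the adjusted p of none was under 0.05 by edgeR, the lowest being 0.0668 for CDH5. The part of these markers in the results below was not tested.

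Of the 41 genes, 40 were abundant enough to be tested, and TNFSF10, which encodes TRAIL, was not, with counts of 1, 0 and 1 in the control and 1, 2 and 0 in the silenced libraries. At an adjusted p under 0.05 by edgeR over 15250 genes, 12 of the 40 differed (30% against 17% of all genes tested), 8 higher and 4 lower after silencing. At an unadjusted p under 0.05, 17 of the 40 did (42.5% against 32.1%), and DESeq2 gave 10 at an adjusted p under 0.05. The higher genes made up 20% of the 40 (8.75% of all genes tested) and the lower genes 10% (8.27%). With the added threshold of a fold change over 2, BMF alone was called, or 2.5% of the 40 against 2.14% of all genes tested (1.14% of all genes tested were called as higher, the direction of BMF). The median log2 fold change was -0.0035 (all genes tested: -6.72e-04), with 20 genes above 0 and 20 below, and values from -0.51 to 1.29. The groups did not overlap for 16 of the 40 genes (40% against 36.6% of all genes tested), 10 with all silenced libraries above and 6 with all below. With any 1 library left out, between 3 and 8 of the 40 passed the adjusted p, and the lowest number came without silenced replicate 1. The other low numbers were 6 without control replicate 2 and 7 each without control replicate 3, silenced replicate 2 or silenced replicate 3. Of the genes of the 40 with a log2 fold change below 0, 0 passed the adjusted p by edgeR without control replicate 2, and likewise without silenced replicate 1. In each of these fits, 6 such genes had an unadjusted p under 0.05 by edgeR. For DESeq2 and for the fits with 1 library left out, the share of all genes that passed is not given here. The comparison of 30% with 17% therefore holds for the main fit only. In that fit, the median SE was 0.0991 for the 40 genes and 0.120 for all genes tested. The median absolute log2 fold change was 0.213 and 0.199. Genes with a smaller SE pass more often at a like size of change, so the 30% does not by itself show larger changes. For a single gene, the exact permutation test over 3 libraries against 3 cannot go below p = 0.1.

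**Figure D1:**
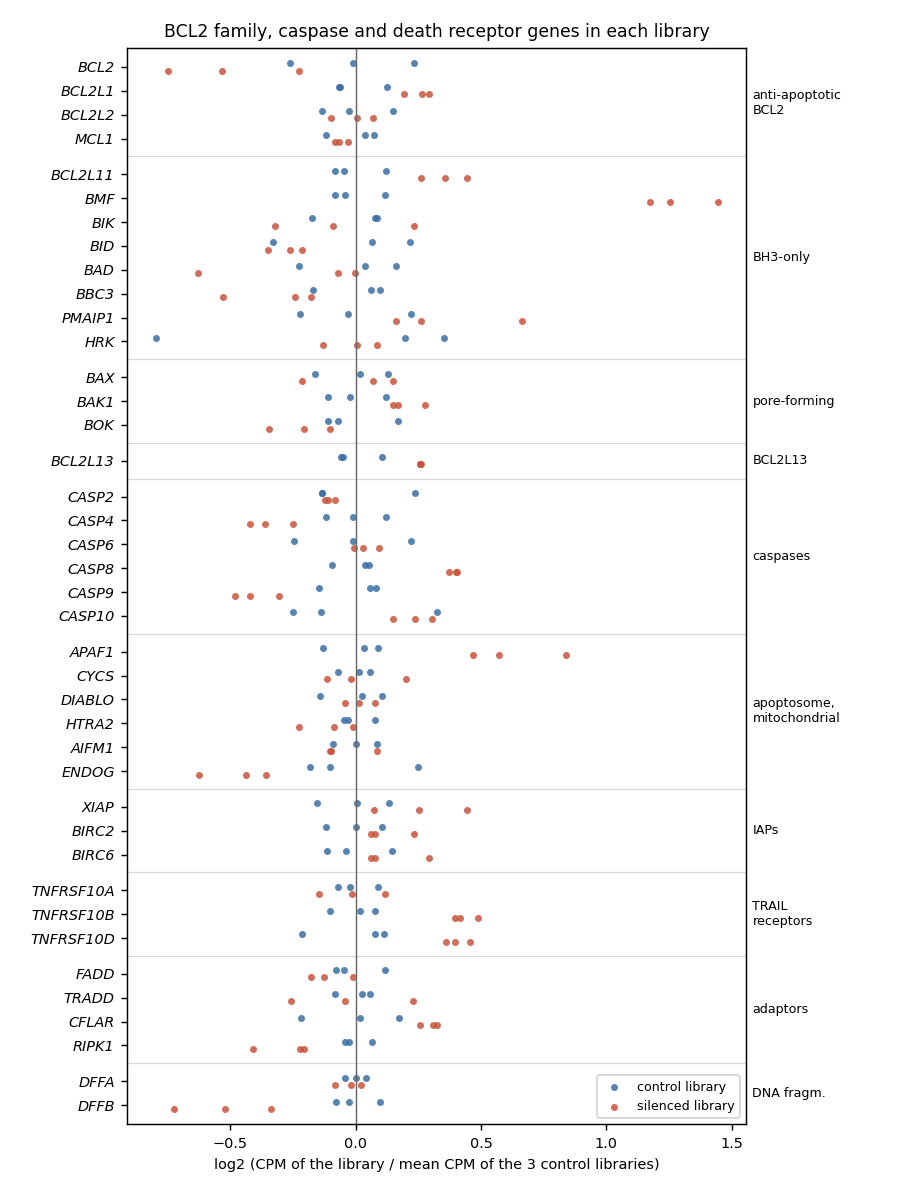
Each row is a gene and each point a library: the x axis gives log2 of its CPM over the mean of the 3 control libraries, control in blue and silenced in red. BMF lies apart, with its 3 silenced libraries (12.9, 14.7 and 12.2 CPM) all above its control libraries (5.10 to 5.85 CPM), while most other genes stay near 0.

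Among the anti-apoptotic BCL2 proteins, which hold BAX, BAK1 and BH3-only proteins inactive, BCL2L1 was higher after silencing and the other 3 did not pass the test. BCL2L1, which encodes BCL-XL, was at 225, 198 and 197 CPM in the control and at 253, 248 and 236 CPM in the silenced libraries. Every silenced library was above every control library, and the log2 fold change was 0.25 (SE 0.0754, edgeR adjusted p = 0.0428), or 119% of the control mean. The adjusted p of BCL2L1 was above 0.05 without control replicate 2 (0.134), control replicate 3 (0.124), silenced replicate 1 (0.154), silenced replicate 2 (0.0896) or silenced replicate 3 (0.0603). MCL1, a short-lived member of the class, was at 210, 240 and 233 CPM in the control and at 215, 223 and 217 CPM in the silenced libraries, and the groups overlapped. Its log2 fold change was -0.06 with a 95% confidence interval from -0.22 to 0.10 (adjusted p = 0.602 by edgeR). BCL2, the founding gene of the family, was read at only 5.45, 4.58 and 6.44 CPM in the control and 4.69, 3.79 and 3.27 CPM in the silenced libraries. Its interval of the log2 fold change was wide, from -0.98 to -0.02, and its adjusted p was 0.138 by edgeR. BCL2L2, which encodes BCL-W, was at 30.05 ± 3.01 and 29.9 ± 1.76 CPM (SD, n = 3 each) and had an interval from -0.22 to 0.22. The readthrough gene BCL2L2-PABPN1 on the same strand, whose reads can overlap those of BCL2L2, had a log2 fold change of -0.30 (adjusted p = 0.0300 by edgeR).

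Per kilobase of annotated exons, BCL2L1 and MCL1 ranked 1 and 2 of the 41 genes in control cells, at 62.4 ± 4.85 and 52.1 ± 3.60 CPM per kb (SD, n = 3 each). BCL2L2 was at 7.17 ± 0.719 and BCL2 at 0.467 ± 0.0794 CPM per kb, close to the lowest tested gene of the list, HRK, at 0.444 ± 0.166 CPM per kb. BCL2 and HRK did not differ beyond their spread on this scale. The next highest genes after MCL1 were FADD and AIFM1, at 34.8 ± 2.55 and 34.7 ± 2.14 CPM per kb, and they too lay within each other's spread. After silencing, BCL2L1 was at 74.2 ± 2.65 and MCL1 at 49.99 ± 0.922 CPM per kb.

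**Figure D2:**
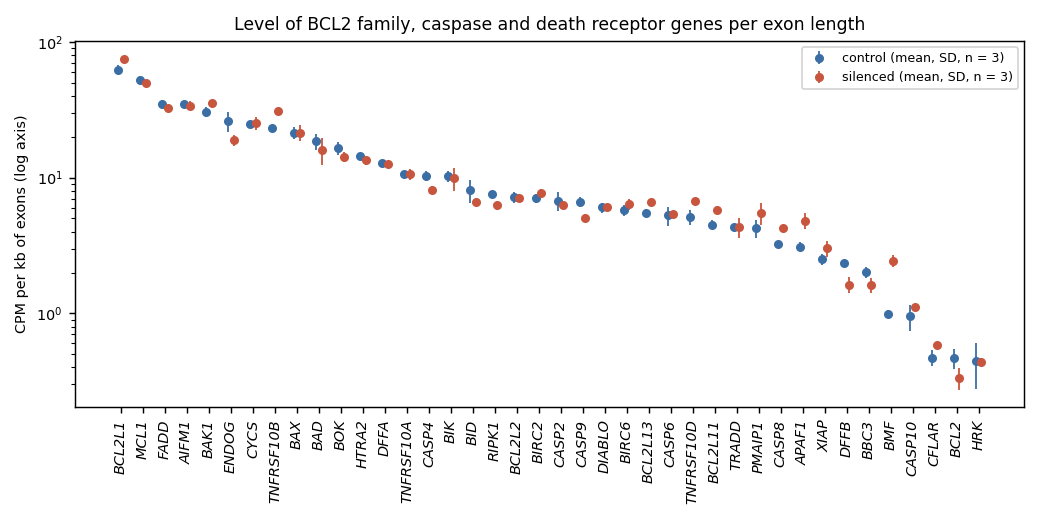
The 40 tested genes are ordered by their control level in CPM per kb of exons (log axis), with the mean and SD of 3 control libraries in blue and of 3 silenced libraries in red. The levels span from 62.4 for BCL2L1 to 0.444 for HRK in control cells, and BMF, among the lowest, moves from 0.991 to 2.43.

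The BH3-only genes were split, with BMF and BCL2L11 higher after silencing and the other 6 of the 8 not past the test. BMF, whose protein binds anti-apoptotic BCL2 proteins and is held on the cytoskeleton in healthy cells, was at 5.24, 5.10 and 5.85 CPM in the control and at 12.9, 14.7 and 12.2 CPM in the silenced libraries. Every silenced library was far above every control library, and BMF was at 246% of the control mean. The log2 fold change was 1.29 (SE 0.147, 95% confidence interval 0.96 to 1.61, edgeR adjusted p = 3.96e-04), and the interval includes fold changes below 2. The counts behind it were 51, 59 and 99 in the control and 132, 159 and 164 in the silenced libraries. Over all 12 other settings tried, the log2 fold change of BMF lay between 1.21 and 1.35 and it was called in each. BMF is on chromosome 15 from 40087890 to 40108892 on the minus strand of GRCh38, where BMF-AS1 overlaps it on the other strand. As the use of strand in the counting is not given in the sources used here, reads of BMF-AS1 may be counted for BMF.

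BCL2L11, which encodes BIM, a BH3-only protein that binds all anti-apoptotic BCL2 proteins, was at 32.7, 28.3 and 29.1 CPM in the control and at 40.9, 38.5 and 36.0 CPM in the silenced libraries. The groups did not overlap, and the log2 fold change was 0.36 (SE 0.0921, edgeR adjusted p = 0.0232). The adjusted p of BCL2L11 was above 0.05 without control replicate 2 (0.0821), control replicate 3 (0.0776) or silenced replicate 1 (0.102). PMAIP1, which encodes NOXA, a partner of MCL1, had a log2 fold change of 0.39 (95% confidence interval 0.01 to 0.76, adjusted p = 0.143 by edgeR), and its silenced replicate 2 (14.98 CPM) stood above the other silenced libraries (11.3 and 10.6 CPM). BBC3, which encodes PUMA, was at 6.68, 5.70 and 6.86 CPM in the control and at 5.66, 4.44 and 5.43 CPM in the silenced libraries. All its silenced libraries were below all control libraries, but the interval, from -0.70 to 0.08, included 0 (adjusted p = 0.263 by edgeR). BID, whose protein links caspase 8 to the mitochondrion once cleaved, had values of 41.6, 37.5 and 28.5 CPM in the control libraries, so that control replicate 3 overlapped the silenced libraries (28.2 to 30.9 CPM). Without control replicate 3, the log2 fold change of BID was -0.42 and its adjusted p 0.0272 by edgeR, against -0.27 and 0.178 with all libraries. BAD, BIK and HRK had intervals of -0.54 to 0.14, -0.40 to 0.33 and -0.67 to 0.59, the last at 17 to 59 counts per library.

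None of the 3 pore-forming effectors, the proteins that permeabilize the outer mitochondrial membrane, passed the test by edgeR or DESeq2. BAK1 was the 1 gene of the class with an unadjusted p under 0.05 by edgeR, which 32.1% of all genes tested had. BAX was at 60.5, 55.9 and 49.4 CPM in the control and at 61.2, 47.6 and 58.0 CPM in the silenced libraries, and the groups overlapped fully. Its log2 fold change was 0.01 with an interval from -0.22 to 0.25. BAK1 was at 73.9, 62.9 and 66.9 CPM in the control and at 75.2, 82.2 and 76.3 CPM in the silenced libraries, and the groups did not overlap. The log2 fold change of BAK1 was 0.20 (SE 0.0830, edgeR adjusted p = 0.124). BOK, a relative of both, had a log2 fold change of -0.21 (adjusted p = 0.166 by edgeR). BCL2L13, an outer membrane protein of the family with a role in mitophagy, was higher after silencing, from 40.9, 45.5 and 40.6 CPM to 50.6, 50.7 and 50.5 CPM (log2 fold change 0.26, SE 0.0784, edgeR adjusted p = 0.0446). The silenced libraries of BCL2L13 were close together and all above the control libraries. Its adjusted p was above 0.05 without control replicate 1 (0.106), control replicate 3 (0.149), silenced replicate 1 (0.122), silenced replicate 2 (0.0815) or silenced replicate 3 (0.0990). With all libraries, it was also above 0.05 by DESeq2 (0.0892) and with all genes of at least 1 count (0.0751).

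**Figure D3:**
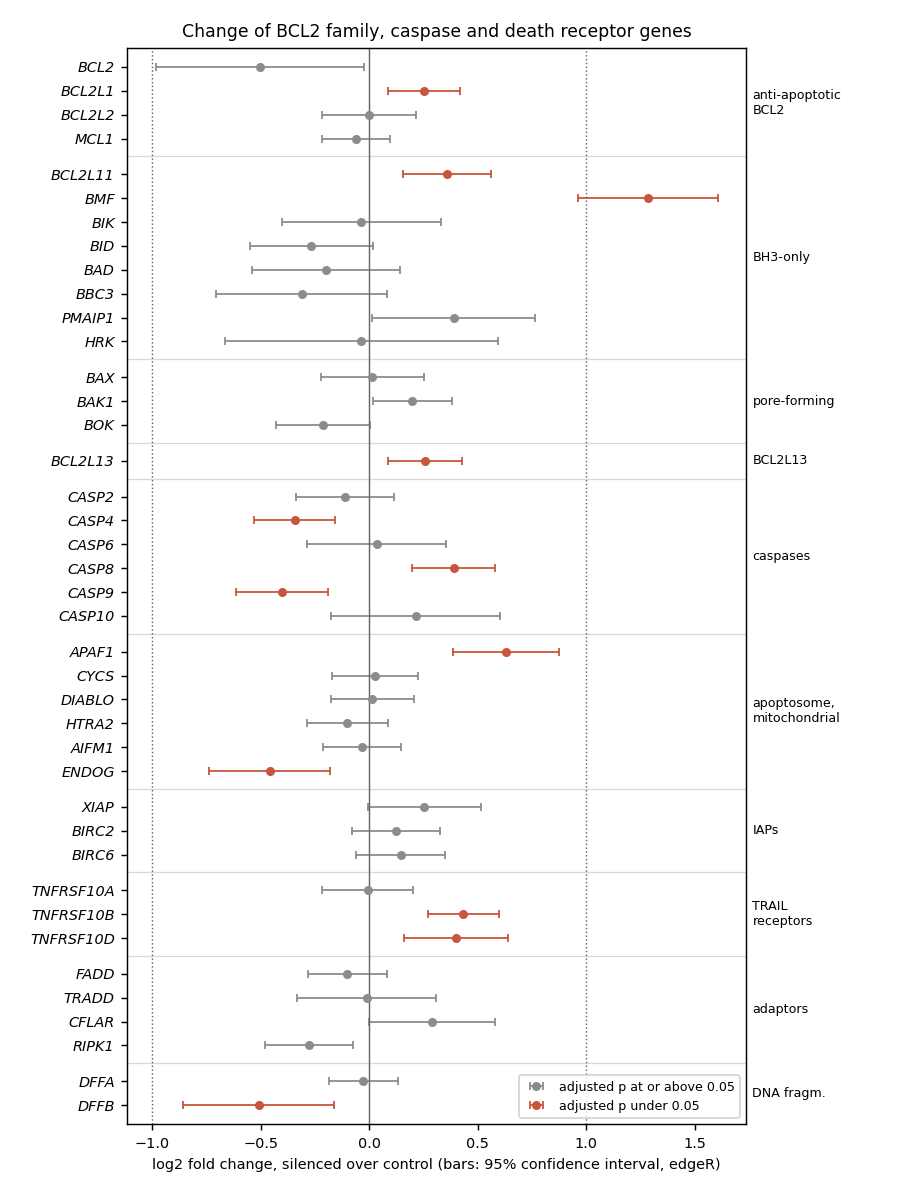
The x axis gives the log2 fold change of each gene, silenced over control, with its 95% confidence interval from edgeR, and genes with an adjusted p under 0.05 are in red. The dotted lines mark a fold change of 2, which BMF alone passes (1.29), and the other red genes lie between -0.51 for DFFB and 0.63 for APAF1.

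Of the 6 caspases, CASP8 was higher and CASP9 and CASP4 were lower after silencing. CASP8, which encodes the initiator caspase of the death receptor pathway, was at 22.1, 24.2 and 24.5 CPM in the control and at 31.1, 30.5 and 31.2 CPM in the silenced libraries. The silenced libraries were nearly equal and all above the control libraries, and the log2 fold change was 0.39 (SE 0.0878, edgeR adjusted p = 0.0133). Its adjusted p was above 0.05 without silenced replicate 1 (0.0555). CASP9, which encodes the initiator caspase of the apoptosome, went the other way, from 31.7, 37.1 and 36.5 CPM to 25.1, 26.2 and 28.4 CPM. The groups did not overlap, and the log2 fold change was -0.40 (SE 0.0960, edgeR adjusted p = 0.0168). The adjusted p of CASP9 was above 0.05 without control replicate 2 (0.0634), control replicate 3 (0.0594) or silenced replicate 1 (0.0779).

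CASP4, whose protein senses bacterial lipopolysaccharide and drives pyroptosis, was at 68.9, 81.4 and 74.4 CPM in the control and at 56.0, 63.0 and 58.2 CPM in the silenced libraries. Each silenced library was below each control library, with a log2 fold change of -0.34 (SE 0.0856, edgeR adjusted p = 0.0202). Its adjusted p was above 0.05 without control replicate 2 (0.0706), silenced replicate 1 (0.0928) or silenced replicate 3 (0.0586). CASP2, a caspase of the response to DNA damage and extra centrosomes, was nearly equal in all libraries (49.2 to 51.0 CPM) but control replicate 3 (63.7 CPM). CASP2 had a log2 fold change of -0.11, which without control replicate 3 was 0.03. CASP10, a relative of CASP8, and CASP6, an executioner, had intervals from -0.18 to 0.60 and from -0.29 to 0.35. CASP8 and CASP10 lie next to each other and to CFLAR on chromosome 2, between 201116104 and 201287711 of GRCh38, and the log2 fold changes along this stretch were 0.29 for CFLAR, 0.21 for CASP10 and 0.39 for CASP8.

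Among the apoptosome and other mitochondrial factors, APAF1 was higher and ENDOG lower, and CYCS, DIABLO, HTRA2 and AIFM1 did not pass the test. APAF1, the scaffold on which caspase 9 is activated, was at 22.4, 25.1 and 26.1 CPM in the control and at 34.0, 43.9 and 36.5 CPM in the silenced libraries. All silenced libraries were above all control libraries, at 155% of the control mean, and APAF1 had the second largest change of the list. Its log2 fold change was 0.63 (SE 0.111, 95% confidence interval 0.39 to 0.87, edgeR adjusted p = 0.00426), and it stayed past the adjusted p in all 12 other settings, with values from 0.52 to 0.71. APAF1 and CASP9, partners in the apoptosome, thus moved in opposite directions, by 0.63 and -0.40 on the log2 scale.

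ENDOG, a mitochondrial nuclease, was at 36.3, 28.5 and 26.9 CPM in the control and at 22.6, 19.8 and 23.9 CPM in the silenced libraries. The groups did not overlap, control replicate 1 was the highest, and the log2 fold change was -0.46 (SE 0.126, edgeR adjusted p = 0.0308). Its adjusted p was above 0.05 without control replicate 1 (0.0873), control replicate 2 (0.0536), silenced replicate 1 (0.0838) or silenced replicate 2 (0.0832). CYCS, the gene of cytochrome c, had a log2 fold change of 0.03 (95% confidence interval -0.17 to 0.22), and as it has 40 annotated pseudogenes, its counts may be shared with them. DIABLO and HTRA2, which encode antagonists of the inhibitors of apoptosis, had intervals from -0.18 to 0.20 and from -0.29 to 0.08, and AIFM1, a mitochondrial flavoprotein that can move to the nucleus, from -0.22 to 0.15.

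The 3 inhibitors of apoptosis had log2 fold changes above 0, and 0 of them passed the test by edgeR or DESeq2. An unadjusted p under 0.05 by edgeR was reached by 0 of the 3, against 32.1% of all genes tested. XIAP, a direct inhibitor of caspases, was at 20.4, 22.7 and 24.8 CPM in the control and at 26.95, 30.8 and 23.8 CPM in the silenced libraries, and silenced replicate 3 overlapped the control libraries. Its log2 fold change was 0.25 (95% confidence interval -0.01 to 0.51, adjusted p = 0.165 by edgeR). BIRC2, a ubiquitin ligase of the TNF receptor pathway, and BIRC6, a giant ubiquitin-conjugating member, had log2 fold changes of 0.12 and 0.14, with adjusted p of 0.395 and 0.315 by edgeR.

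Of the TRAIL receptors, TNFRSF10B and TNFRSF10D were higher after silencing and TNFRSF10A did not pass the test. TNFRSF10B, which encodes the death receptor DR5, was at 111, 120 and 125 CPM in the control and at 156, 158 and 167 CPM in the silenced libraries. The groups did not overlap, at 135% of the control mean, and the log2 fold change was 0.43 (SE 0.0743, 95% confidence interval 0.27 to 0.60, edgeR adjusted p = 0.00369). TNFRSF10B stayed past the adjusted p in all 12 other settings, with values from 0.38 to 0.47. RHOBTB2 overlaps it on the other strand and was also higher (log2 fold change 0.28, adjusted p = 0.0459 by edgeR), and as the use of strand in the counting is not given in the sources used here, reads of both may be shared. TNFRSF10A, which encodes the other death receptor of TRAIL, DR4, was at 30.9, 33.4 and 29.9 CPM in the control and at 28.4, 31.1 and 34.0 CPM in the silenced libraries. Its groups overlapped, and the log2 fold change was -0.01 (95% confidence interval -0.22 to 0.20, adjusted p = 0.971 by edgeR). The intervals of the 2 death receptors did not overlap, and the difference between them was not tested further.

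TNFRSF10D, a decoy receptor without a working death domain, was at 15.6, 19.6 and 19.1 CPM in the control and at 23.2, 23.9 and 24.8 CPM in the silenced libraries. All silenced libraries were above all control libraries (log2 fold change 0.40, SE 0.109, edgeR adjusted p = 0.0300). Its adjusted p was above 0.05 without control replicate 1 (0.0806), control replicate 3 (0.0539), silenced replicate 1 (0.0756), silenced replicate 2 (0.0539) or silenced replicate 3 (0.0813). TNFRSF10A, TNFRSF10B and TNFRSF10D were thus read at 15.6 to 167 CPM, and TNFRSF10C, a further TRAIL receptor described below, at 2.36 to 6.64 CPM. Their ligand gene TNFSF10, at 0 to 2 counts per library, was close to absent from these counts, at most 0.185 CPM in any library.

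None of the 4 adaptors passed the test by edgeR or DESeq2. Of them, 2, RIPK1 and CFLAR, had an unadjusted p under 0.05 by edgeR, as did 32.1% of all genes tested. RIPK1, the kinase that directs TNF receptor signals to survival or death, was at 33.7, 31.6 and 31.3 CPM in the control and at 27.6, 27.9 and 24.2 CPM in the silenced libraries. All silenced libraries were below all control libraries, with a log2 fold change of -0.28 (standard error 0.0925, 95% confidence interval -0.48 to -0.07) and an adjusted p of 0.0623 by edgeR. CFLAR, which encodes FLIP, the inhibitor of caspase 8 at the receptor, was at 9.15, 12.01 and 10.8 CPM in the control and at 13.2, 13.3 and 12.7 CPM in the silenced libraries. Its silenced libraries were all above the control libraries, and the adjusted p was 0.154 by edgeR at a log2 fold change of 0.29. FADD, which joins the receptors to caspase 8, was at 69.5, 62.1 and 60.8 CPM in the control and at 63.6, 56.7 and 58.8 CPM in the silenced libraries. The groups of FADD overlapped, and its interval ran from -0.28 to 0.08 around a log2 fold change of -0.10. TRADD, the adaptor of the TNF receptor, had an interval from -0.33 to 0.31.

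DFFB, which encodes the nuclease that cuts DNA between nucleosomes, was lower after silencing, and DFFA, which encodes its inhibitor and chaperone, did not pass the test. DFFB was at 9.66, 8.55 and 8.87 CPM in the control and at 5.47, 6.29 and 7.14 CPM in the silenced libraries. The groups did not overlap, and DFFB had the most negative log2 fold change of the list, -0.51 (SE 0.158, edgeR adjusted p = 0.0481), close to that of BCL2. Without any 1 library, its adjusted p was between 0.0537 (without silenced replicate 3) and 0.165 (without silenced replicate 1), and thus above 0.05 for each of the 6 libraries. With all libraries, the adjusted p of DFFB was also above 0.05 by DESeq2 (0.0968) and with library size only (0.0646). DFFA had an interval from -0.19 to 0.13. The nucleases DFFB and ENDOG were thus both lower, at 69.8% and 72.2% of their control means.

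**Figure D4:**
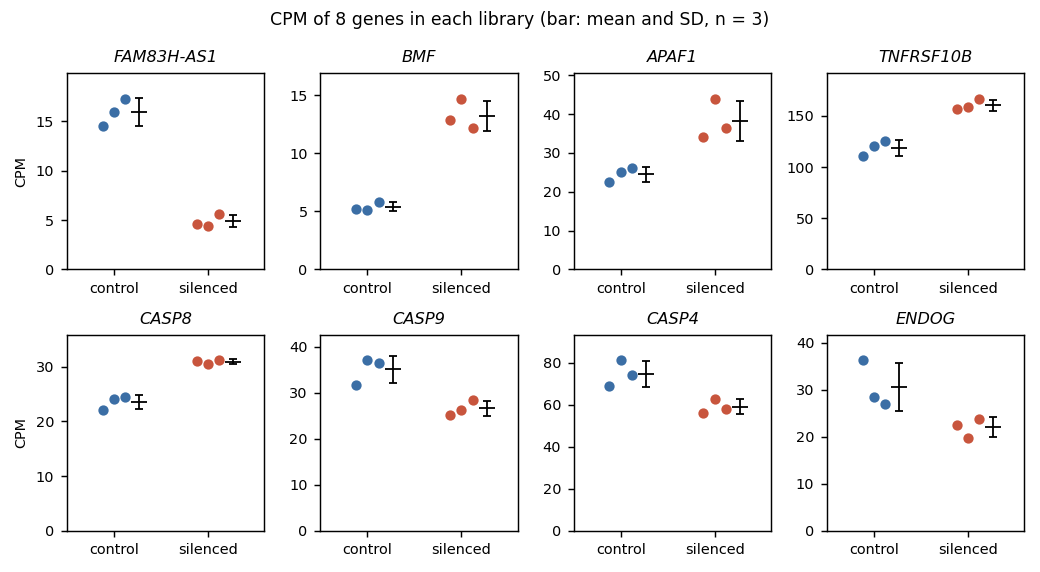
CPM in each library for FAM83H-AS1 and 7 cell death genes, with control libraries in blue, silenced libraries in red and the mean and SD of each group as a black bar (n = 3). In every panel the groups do not overlap: BMF, APAF1, TNFRSF10B and CASP8 are higher after silencing and FAM83H-AS1, CASP9, CASP4 and ENDOG are lower. The genes shown had all passed the adjusted p by edgeR, so that this separation is no further support. The groups did not overlap for 36.6% of all genes tested.

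Summed over all 41 genes, the control libraries lay at 1917, 1931 and 1916 CPM and the silenced libraries at 1989, 2055 and 1973 CPM, and every silenced library was above every control library. The largest rises in mean CPM were those of TNFRSF10B (119 to 160) and BCL2L1 (207 to 246). Of the 40 tested genes, 20 had a log2 fold change above 0 and 20 below, so the sum does not describe the genes as a whole. The classes differed in whether their sums overlapped between the groups. The 4 anti-apoptotic genes added up to 465 to 474 CPM in the control and to 488 to 504 CPM in the silenced libraries, and BCL2L1 carried the difference. The 8 BH3-only genes added up to 119 to 145 CPM and 136 to 143 CPM, so that BMF, a minor part of the sum, did not separate the groups. The TRAIL receptor genes added up to 157 to 174 CPM in the control and to 208 to 226 CPM in the silenced libraries. The caspases overlapped between the groups (187 to 218 and 181 to 190 CPM), as did the pore-forming effectors (158 to 185 and 169 to 175 CPM).

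The rest of the pathway was read from a list of 57 further cell death genes, of which 44 could be tested. At an adjusted p under 0.05 by edgeR, 12 of the 44 differed (27.3% against 17% of all genes tested), 9 higher and 3 lower. The number was 6 without silenced replicate 1, and the share of all genes in that fit is not given here. With all libraries, the median log2 fold change of the list was 0.14, against -6.72e-04 over all genes tested. The median SE of the list was 0.104 (all genes tested: 0.120), and the median absolute log2 fold change was 0.216 (all genes tested: 0.199). TRAF1 was the only tested gene of the list over a fold change of 2. TRAF1, an adaptor of the TNF receptor family, was at 2.26, 2.50 and 2.90 CPM in the control and at 8.69, 8.60 and 8.92 CPM in the silenced libraries (log2 fold change 1.75, adjusted p = 2.27e-04 by edgeR). Of the receptors on the list, FAS rose from 2.99 ± 0.201 to 5.24 ± 0.624 CPM, the TRAIL decoy receptor TNFRSF10C from 2.65 ± 0.312 to 4.94 ± 1.54 CPM and TNFRSF21, which encodes DR6, from 69.5 ± 1.148 to 102 ± 3.37 CPM (SD, n = 3 each). The other receptors tested, TNFRSF1A, TNFRSF1B, TNFRSF25 and TNFRSF12A, did not pass the adjusted p by edgeR, with log2 fold changes of 0.06, 0.25, 0.05 and -0.34. BNIP3L, a mitophagy receptor, rose by 0.63 and CIDEB, which encodes a lipid droplet protein related to DFFA and DFFB, fell by 0.69 on the log2 scale.

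The 12 genes that passed the adjusted p differed in how far they rested on single libraries. BMF, APAF1 and TNFRSF10B passed in all 12 other settings, and CASP8 in all but 1. BCL2L11, CASP4 and CASP9 passed in 9, ENDOG in 8, BCL2L1 and TNFRSF10D in 7, BCL2L13 in 5 and DFFB in 4 of the 12. None of these 12 genes changed its direction in any setting.

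**Figure D5:**
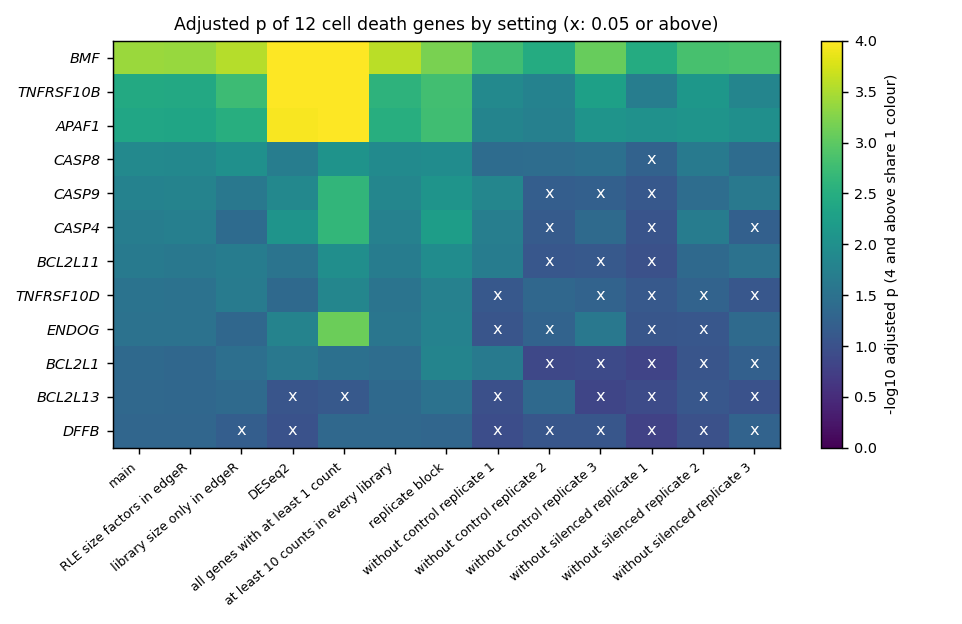
Rows are the 12 genes with an adjusted p under 0.05, columns the main fit and the 12 other settings, and the colour gives -log10 of the adjusted p, with an x where it was 0.05 or above. BMF, TNFRSF10B and APAF1 have no x, CASP8 has 1 (without silenced replicate 1), and DFFB has 8.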

How the data were processed

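RNA-Seq libraries were prepared from total RNA with an Ion Proton kit. Per-gene numbers of mapped reads were obtained by the authors with MapSplice, and the deposited values are these raw counts, on build GRCh37 per the submitters' processing notes. The handling of strand and of multiply mapped reads is not given in the sources used here. In GENCODE 29, 25 of the 41 genes overlap a gene on the opposite strand, so that their counts may hold reads of that gene. Groups and replicate numbers came from the sample titles.

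The silenced and control libraries were compared with edgeR 4.0.16 in R 4.3.3 (filterByExpr, TMM, quasi-likelihood F test, Benjamini-Hochberg over 15250 genes). Genes with an adjusted p under 0.05 were counted, and those with a fold change over 2 as well were called, the thresholds given in the study's methods. The study's results instead state an adjusted p (false discovery rate) under 0.01 with the same fold change, which is among the alternatives below. The SE of a log2 fold change was obtained from its size and the F statistic, as their ratio after taking the root of F. CPM use the library size after TMM, and CPM per kb divide them by the union of the exons in GENCODE 29 (GRCh38), in which all 41 genes were matched by symbol. Locations are from that release, not from the build of the counts. BH3 stretches were located by translating the coding sequences and searching for leucine, any 2 residues, a hydrophobic residue, a small residue and aspartate, and the 10 codons around the match were printed.

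On simulated counts for 15250 genes of the same comparison, with 200 genes changed by a fold of 4, edgeR recovered 200 with 0 false calls, as did DESeq2 1.42.0. Smaller changes, changes in genes with low counts, and a spread between replicates that differs by gene were not simulated. Alternatives were RLE size factors, library size only, DESeq2, all genes with at least 1 count, a minimum of 10 counts in all libraries, a block for the replicate number, each library left out, and, for called genes, an adjusted p under 0.01. Genes to be named in full were those with an adjusted p under 0.05 and 12 core genes of the classes, and of the further pathway genes the 6 with the largest change among those passing. The genes and lists were chosen with earlier results of these data known. Of the 57 further genes, 55 were listed in the table. Some genes of the further and marker lists are counted but not reported by name here.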

Additional observations from a re-analysis of the deposited data

How the results depend on the processing

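BMF was called in all 12 alternative fits and at an adjusted p under 0.01, and FAM83H-AS1 kept its direction and its adjusted p under 0.05 throughout. Over all genes, 326 were called, 583 among genes with at least 1 count, 199 with at least 10 counts in every library and 148 at an adjusted p under 0.01, and leaving out 1 library gave 200 to 335, the lowest without silenced replicate 1. With 1 library left out, 3 to 8 of the cell death genes passed an adjusted p under 0.05 (3 to 6 higher and 0 to 3 lower), and 6 to 12 of the further pathway genes did. These fits rest on fewer libraries, and the share of all genes passing an adjusted p under 0.05 in each is not given here. The cell death genes had a median log2 fold change of -0.0035, 0.0299 with library size only, which moved the median of all genes to 0.0348, and -0.0121 to 0.0189 with 1 library left out.

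The sign turned only in genes that did not pass the test. BCL2L2 was at -0.0038 with RLE size factors, -0.0041 with DESeq2 and -0.0086 with all genes of at least 1 count. With library size only, BIK was at 3.19e-04, HRK at 9.65e-04, TNFRSF10A at 0.0264, TRADD at 0.0244 and DFFA at 0.0086. Without any 1 library, values of BCL2L2 ranged from -0.068 to 0.076, of BIK from -0.20 to 0.082, of HRK from -0.29 to 0.15, of BAX from -0.065 to 0.11, of CASP2 from -0.18 to 0.027, of CASP6 from -0.066 to 0.15, of CYCS from -0.069 to 0.093, of DIABLO from -0.054 to 0.072, of AIFM1 from -0.10 to 0.0093, of TNFRSF10A from -0.079 to 0.054, of TRADD from -0.14 to 0.094 and of DFFA from -0.052 to 4.93e-04. The cause was not tested. Low counts limit BCL2 and HRK, which had the widest intervals of the 40 genes.

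The labels tie the same replicate number in both groups to no shared culture or day. The correlations of the deviations from the group means were 0.124, 0.149 and 0.067 for numbers 1, 2 and 3, and every library correlated best with its own number, a hint from the data and not from the design. As 1 of the 3 was below 0.1, the libraries were not treated as paired. With the replicate number as a block, 380 genes were called by both thresholds, and BMF was the only cell death gene among them. At an adjusted p under 0.05 and any fold change, 13 of the cell death genes passed. The added gene was RIPK1 (log2 fold change -0.28, adjusted p = 0.0398 by edgeR). The share of all genes passing the adjusted p alone in this fit is not given here.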
